A study of Mus musculus with 15 samples.

Results

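The proteasome genes of mouse brown adipose tissue were compared between mice given bisphenol S (BPS), an industrial replacement for bisphenol A, and mice given vehicle. The members were the genes whose symbols name a subunit, assembly factor or regulator of the proteasome by the prefixes Psma to Psmg followed by a number, without the 3 immunoproteasome subunits Psmb8, Psmb9 and Psmb10 and without pseudogenes, together with Nfe2l1 and Pomp. This gave 48 of the 16774 genes in the table. By known role, they were 8 genes of the 20S alpha ring, 7 of the 20S beta ring, 6 ATPases and 11 non-ATPase subunits of the 19S particle, 8 assembly chaperones, 6 genes of other activators and an inhibitor, and the transcription factor Nfe2l1. The last member, Psmc3ip, encodes a cofactor of meiotic recombination, is not a subunit of the proteasome, and was included only because its symbol matched.

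The proteasome is the barrel-shaped protease that degrades proteins tagged with ubiquitin. Its 20S core is a stack of alpha and beta rings with the proteolytic sites inside the beta rings, and the 19S particle binds ubiquitin chains, unfolds the substrate and feeds it into the core. Nfe2l1 is an endoplasmic reticulum-bound transcription factor that is cleaved and moves to the nucleus when proteasome capacity falls short, where it activates proteasome genes, and in brown fat of mice it is known for its part in the adaptation to cold.

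Transcripts were measured by poly(A) RNA sequencing of bulk tissue in 7 BPS libraries (replicates 1, 2, 3, 4, 5, 6 and 8) and 8 vehicle libraries (replicates 1 to 8). The dose, how long it was given, and the age, sex and strain of the mice were not stated in the sources used here, and the series title sets the comparison in the context of aging at an environmental dose. Values are FPKM, which scale reads by transcript length and library total, so levels can be set side by side between genes. Differences are log2 ratios of BPS to vehicle on the log2(FPKM + 1) scale from limma, fitted to the 12156 genes that reached 1 FPKM in 7 or more libraries. Adjusted p-values follow Benjamini-Hochberg over those genes, with 0.05 as the threshold. In bulk tissue, fewer cells of a type and less RNA per cell cannot be told apart.

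Several libraries stood apart before any proteasome gene was considered. The summed level of 4 Y-linked genes lay between 0.529% and 73.2% of the vehicle mean in BPS replicates 4, 5, 6 and 8, against 80.4% to 117% in the other 11 libraries. The same 4 libraries had H2-Ea-ps at 4 to 15.32 FPKM, while this transcript was listed at 0 in the other 11. Their 7 macrophage markers summed to between 428 and 701 FPKM, against 226 to 274 FPKM in BPS replicates 1, 2 and 3 and 228 to 342 FPKM in vehicle. Skeletal muscle transcripts, a list of 11 markers, summed to 75782, 73215 and 25124 FPKM in vehicle replicates 2, 6 and 8, against at most 13691 FPKM in the other 12 libraries. The 10 brown adipocyte markers, Ucp1 among them, were above 0 in every library, with the lowest sum, 1558 FPKM, in BPS replicate 4 and 8009 to 23030 FPKM in the other 14. The counts, and the ratios that rest on these libraries, are therefore given also for 11 libraries without BPS replicates 4, 5, 6 and 8, and for 12 libraries without vehicle replicates 2, 6 and 8.

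Transcripts of the proteasome were abundant and differed little between BPS and vehicle. Of the 48 members, 46 reached the expression filter, and none of the 46 passed limma's Benjamini-Hochberg threshold, against 50 of 12156 genes tested (0.411%), of which 42 were higher in BPS (0.346%) and 8 lower (0.0658%). At an unadjusted p under 0.05, 3 of the 46 were higher in BPS (Psmd5, Psmf1 and Psme1) and 2 were lower (Pomp and Psmg3), 5 in all. Over all genes tested 23.1% reached that level, 16.4% higher and 6.7% lower. The median log2 ratio of the 46 was -0.028, with 29 of 46 below 0, beside a median of 0.046 and 41.5% below 0 over all genes tested. In the authors' deposited table, 1 of 48 members, Pomp, had a q-value under 0.05 (0.00377), where 5.74% of all genes in that table did so (3.16% higher in BPS and 2.57% lower). There, the next smallest q-value among the members was 0.147, of Psmg3. No member had groups that did not overlap, while 0.576% of all genes tested had such groups.

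Every log2 ratio of a tested member lay between -0.25 (Pomp) and 0.23 (Psmf1), and every 95% interval lay within -0.44 (Psmg3) and 0.45 (Psmf1). As fold values, those outer bounds are 0.738 for Psmg3 and 1.36 for Psmf1. The median standard error of the 46 ratios was 0.084, against 0.117 over all genes tested, and the median absolute ratio was 0.083, against 0.15. Within groups, the median SD of the members' log2 values was 0.12 in BPS and 0.16 in vehicle, against 0.21 in BPS and 0.22 in vehicle over all genes tested. The members' median of mean levels was 91.1 FPKM in BPS and 96.6 FPKM in vehicle, beside 11.5 FPKM in BPS and 11.3 FPKM in vehicle for all genes tested. The members' smaller spreads and ratios were not compared with those of genes at a matched level, so the part of level in them was not tested.

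**Figure D1:**
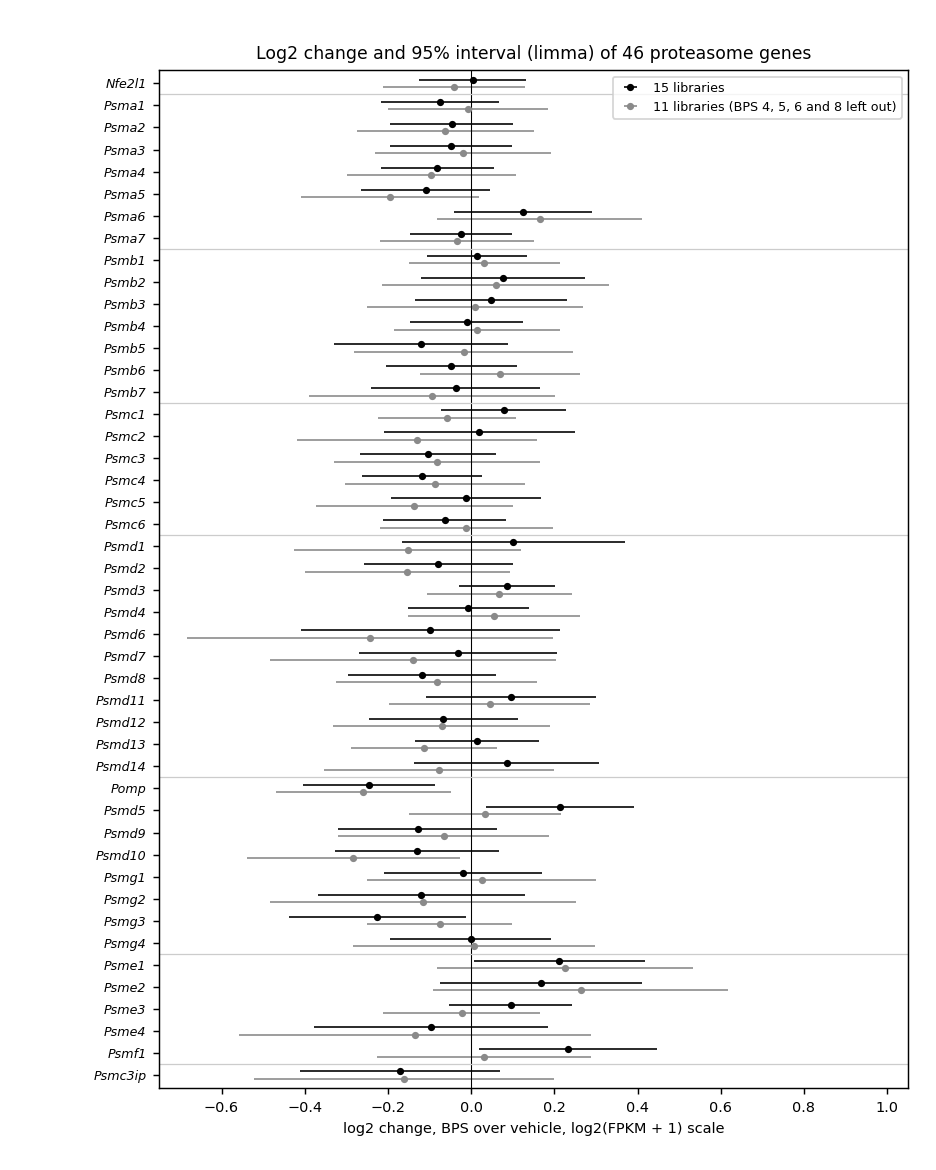
Log2 ratio of BPS to vehicle (x axis, log2(FPKM + 1) scale) with its 95% limma interval for each of the 46 tested proteasome genes (y axis, in order of role), from all 15 libraries in black and from the 11 libraries without BPS replicates 4, 5, 6 and 8 in grey. The black points lie between -0.25 (Pomp) and 0.23 (Psmf1), and Psmd5, Psmg3 and Psmf1 lie nearer 0 in grey than in black.

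Without BPS replicates 4, 5, 6 and 8, again none of the 46 members passed the adjusted threshold, against 0.286% of 11885 genes (0.278% higher in BPS and 0.00841% lower). At an unadjusted p under 0.05, 2 members were lower (Pomp and Psmd10) and none was higher, where 8.08% of all genes reached that level, 5.2% higher and 2.88% lower. The median log2 ratio of the 46 was then -0.06, with 31 below 0, and that of all genes was 0.0085. Without vehicle replicates 2, 6 and 8, no gene of 11877 passed the adjusted threshold (0%). At the unadjusted level 12% of all genes passed, 8.02% higher and 3.93% lower, and of the members again Pomp and Psmd10 did so, both lower in BPS. The members' median was then 0.0021, with 22 of 46 below 0, beside 0.035 for all genes.

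Levels differed more between genes, across roles and within them, than between BPS and vehicle. The 20S genes were the most abundant, with vehicle means of 89.9 to 299 FPKM for the alpha genes that passed the filter and 174 to 328 FPKM for the beta genes. The ATPase genes lay between 66.1 and 136 FPKM in vehicle, and the non-ATPase genes between 32.3 FPKM (Psmd1) and 205 FPKM (Psmd4). The assembly chaperones lay between 13.8 FPKM (Psmd9) and 41.1 FPKM (Psmg1) in vehicle, apart from Pomp at 332 FPKM, which was the highest vehicle mean of any member. The other activators and the inhibitor that passed the filter lay between 9.7 FPKM (Psmf1) and 269.7 FPKM (Psme2) in vehicle.

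**Figure D2:**
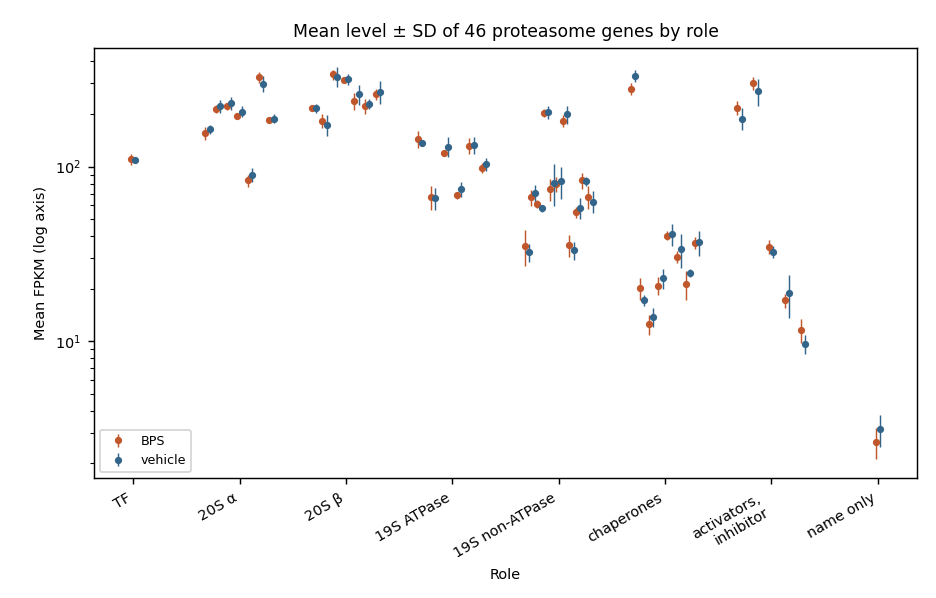
Mean FPKM with SD (y axis, log scale) of the 46 tested proteasome genes, grouped by role (x axis), in 7 BPS libraries (orange, left of each pair) and 8 vehicle libraries (blue). The 2 points of a gene lie close together in every role. Genes differ more, between roles and within them, with vehicle means from 332 FPKM (Pomp) to 3.12 FPKM (Psmc3ip).

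Nfe2l1, the activator of proteasome genes, differed between the groups by less than the spread of the libraries. Its lowest, median and highest values were 99.3, 112.9 and 118 FPKM in BPS and 102, 109.9 and 115 FPKM in vehicle. The BPS libraries spread to both sides of the vehicle range, with 2 of 7 above the highest vehicle library and 2 below the lowest. Means were 109.9 ± 7.94 FPKM in BPS and 109.5 ± 4.63 FPKM in vehicle (SD, n = 7 and 8). The log2 ratio was 0.0034 ± 0.06 (limma SE), with a 95% interval of -0.12 to 0.13, and the adjusted p was 0.976 by limma. It was -0.042 in 11 libraries and 0.038 in 12. In RefSeq (GRCm38.p6), Nfe2l1 lies on chromosome 11 from 96817414 to 96829968.

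Of the 16 listed genes that process Nfe2l1 or pair with it, none passed limma's adjusted threshold. A ratio above 0 was found for 6 of the 16, beside 7107 of 12156 genes tested. Their median was -0.034, beside 0.046 over all genes tested. The smallest p-values of the 16 were those of Ddi2, a protease that cleaves Nfe2l1, and Maff, a small Maf protein that can dimerize with factors of this family. Ddi2 averaged 2.5 ± 0.77 FPKM in BPS and 1.61 ± 0.351 FPKM in vehicle (SD, n = 7 and 8), a log2 ratio of 0.4 ± 0.13 with an adjusted p of 0.113 by limma. Maff averaged 5.5 ± 1.92 FPKM in BPS and 9.91 ± 5.22 FPKM in vehicle, a log2 ratio of -0.69 ± 0.22 with an adjusted p of 0.115 by limma, and its highest vehicle library was at 22.4 FPKM. The authors' deposited table gave Maff a q-value of 0.0344. Its mean was 7.13 FPKM in BPS replicates 1, 2 and 3 and 4.28 FPKM in the other 4 BPS libraries, and its ratio was -0.35 in 11 libraries, with an adjusted p of 0.756 by limma. Vcp, the ATPase that extracts Nfe2l1 from the membrane, averaged 118 FPKM in BPS and 117 FPKM in vehicle. Ngly1, which removes sugars from Nfe2l1, averaged 33.7 FPKM in BPS and 33.8 FPKM in vehicle.

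Factors of the Nfe2l1 type bind antioxidant response elements, here searched as TGACNNNGC on both strands in the 250 bases before each RefSeq start (GRCm38.p6). Of the 40 members with an entry in the promoter table, 5 held it, in 5 of their 47 windows (10.6%), beside 10.2% of all 32851 windows of that length. The general promoter motif CCAAT was in 36.2% of the members' windows, beside 33.8% of all windows. The holders were Psmd9, Psmb5, Psmc6, Psmd12 and Psmb6. A match is a description of the letters and not a shown binding site. Shown 5′ to 3′ on the gene's strand are 120 bases from 4 holders, with the match in capitals, and the 120 bases before the start of Pomp, which held no match and was added because it had the lowest ratio of the members. The stretches lie at chr5:123228070-123228189 (plus strand) for Psmd9, chr14:54617996-54618115 (minus strand) for Psmb5, chr14:45329574-45329693 (plus strand) for Psmc6, chr11:107479278-107479397 (plus strand) for Psmd12 and chr5:147860508-147860627 (plus strand) for Pomp.
Psmd9: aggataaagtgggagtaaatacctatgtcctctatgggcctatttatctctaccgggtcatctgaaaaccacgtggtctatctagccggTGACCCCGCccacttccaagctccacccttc
Psmb5: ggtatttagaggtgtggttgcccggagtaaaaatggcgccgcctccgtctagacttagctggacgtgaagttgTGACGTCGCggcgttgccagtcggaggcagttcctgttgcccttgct
Psmc6: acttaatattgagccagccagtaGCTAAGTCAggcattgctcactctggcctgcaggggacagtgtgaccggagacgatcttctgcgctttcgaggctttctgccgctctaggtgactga
Psmd12: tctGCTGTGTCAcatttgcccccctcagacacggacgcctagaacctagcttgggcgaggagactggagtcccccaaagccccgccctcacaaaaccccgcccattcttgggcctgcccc
Pomp: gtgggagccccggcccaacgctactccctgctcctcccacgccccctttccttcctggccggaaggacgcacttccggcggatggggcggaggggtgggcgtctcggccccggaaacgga
The capitals begin 31 bases before the start in Psmd9 and 47 bases before it in Psmb5, on the sense strand, and 227 bases before it in Psmc6 and 247 bases before it in Psmd12, on the antisense strand. The 4 genes had log2 ratios of -0.13 (Psmd9), -0.12 (Psmb5), -0.063 (Psmc6) and -0.067 (Psmd12), none past the threshold by limma. Psmb5 was at -0.018 and Psmc6 at -0.011 in 11 libraries, and Psmc6 was at -0.0094 and Psmd12 at 0.043 in 12.

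The alpha ring forms the gate of the core. Of its 8 genes, Psma8, known as a testis form, was below the filter, at 0.171 ± 0.0701 FPKM in BPS and 0.142 ± 0.138 FPKM in vehicle (SD, n = 7 and 8). Of the other 7, only Psma6 had a ratio above 0, and the ring's median was -0.049, with -0.034 in 11 libraries and -0.046 in 12. Psma6 ranged from 295 FPKM through a median of 321 to 365 FPKM in BPS, against 260.5 FPKM through 289 to 345 FPKM in vehicle. The groups overlapped, with BPS replicate 3 alone above the highest vehicle library, vehicle replicate 5. The log2 ratio of Psma6 was 0.12 ± 0.078 with an adjusted p of 0.339 by limma. Psma5 ranged from 73.1 FPKM through a median of 84.6 to 93.5 FPKM in BPS, against 79.1 FPKM through 87.2 to 101 FPKM in vehicle. Its log2 ratio was -0.11 ± 0.073 with an adjusted p of 0.365 by limma, and -0.19 in 11 libraries, where the adjusted p was 0.652. The remaining 5 alpha genes, Psma1, Psma2, Psma3, Psma4 and Psma7, had ratios from -0.082 (Psma4) to -0.025 (Psma7).

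The beta ring holds the 3 catalytic subunits, Psmb6 with caspase-like, Psmb7 with trypsin-like and Psmb5 with chymotrypsin-like activity. The ring's median log2 ratio was -0.011, with 3 of 7 genes above 0. Psmb5 ranged from 191 FPKM through a median of 245 to 269 FPKM in BPS, against 219.5 FPKM through 254 to 313 FPKM in vehicle. BPS replicates 4 and 8 lay below the lowest vehicle library, and vehicle replicates 5 and 7, at 306 and 313 FPKM, were the highest of all 15. For Psmb5 the log2 ratio was -0.12 ± 0.098 with an adjusted p of 0.455 by limma, and -0.018 in 11 libraries. Psmb6 averaged 222 ± 21.5 FPKM in BPS and 229 ± 14.5 FPKM in vehicle (SD, n = 7 and 8), with 185 FPKM in BPS replicate 4 as its lowest value. Its log2 ratio was -0.047 ± 0.074, with an adjusted p of 0.715 by limma, and 0.07 in 11 libraries. Psmb7 averaged 259.9 ± 18.7 FPKM in BPS and 269 ± 40.3 FPKM in vehicle, a log2 ratio of -0.037 ± 0.096 with an adjusted p of 0.828 by limma, and -0.093 in 11 libraries and -0.0019 in 12.

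The structural beta genes Psmb1, Psmb2, Psmb3 and Psmb4 had log2 ratios from -0.011 (Psmb4) to 0.077 (Psmb2). They ranged from 0.0092 (Psmb3) to 0.06 (Psmb2) in 11 libraries, where Psmb4 was at 0.015, and from -0.0083 (Psmb4) to 0.027 (Psmb1) in 12, where Psmb2 was at 0.0028. Psmb2 had the second smallest p of the ring, with 161, 178 and 203 FPKM as the lowest, median and highest BPS values and 152, 165.5 and 216 FPKM in vehicle, and an adjusted p of 0.623 by limma. Vehicle replicates 5 and 7 were again the highest, and over the 7 beta genes they lay 0.18 and 0.16 above the vehicle mean on the log2 scale. Over the 7 tested alpha genes, vehicle replicates 5 and 7 lay 0.15 and 0.11 above the vehicle mean. BPS replicate 4 lay 0.15 below the vehicle mean over the beta genes, with all 7 under it. Vehicle replicate 4 was close to this, at -0.14 over the beta genes, also with all 7 under the mean.

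The 6 ATPases form the unfolding motor at the base of the 19S particle. Their median log2 ratio was -0.038, with 2 of 6 above 0, Psmc1 at 0.079 and Psmc2 at 0.02. Psmc4 had the smallest p, with 64.7, 67.5 and 74 FPKM as the lowest, median and highest BPS values, against 63.6, 73.5 and 84.7 FPKM in vehicle. All 7 BPS libraries lay below the vehicle mean, and the groups overlapped. Its log2 ratio was -0.12 ± 0.068 with an adjusted p of 0.3 by limma. Psmc3 had 114, 119 and 129 FPKM as the lowest, median and highest BPS values, against 115.5, 123 and 169 FPKM in vehicle. The highest, vehicle replicate 2, stood well apart from the next, vehicle replicate 6 at 138 FPKM. The log2 ratio of Psmc3 was -0.1 ± 0.077 with an adjusted p of 0.414 by limma, and it was -0.0087 in the 12 libraries without vehicle replicates 2, 6 and 8. All 6 ATPase genes had ratios below 0 in 11 libraries, with a median of -0.084.

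The non-ATPase subunits include the scaffold proteins Psmd1 and Psmd2, the ubiquitin receptor Psmd4 and the deubiquitinating enzyme Psmd14. Their median log2 ratio was -0.0067, with 5 of 11 above 0, and the number above 0 was 3 of 11 in 11 libraries and 10 of 11 in 12. Psmd3, a subunit of the lid, had 55.5, 62 and 63.8 FPKM as the lowest, median and highest BPS values, against 52.5, 57.6 and 61.7 FPKM in vehicle. For this gene 4 of 7 BPS libraries lay above every vehicle library. Its log2 ratio was 0.087 ± 0.054 with an adjusted p of 0.336 by limma. Psmd8, another lid subunit, had 158, 189.7 and 200.5 FPKM as the lowest, median and highest BPS values, against 164, 196 and 233 FPKM in vehicle. Its log2 ratio was -0.12 ± 0.084 with an adjusted p of 0.395 by limma, and vehicle replicates 5 and 7 were its highest libraries. Of the remaining 9, Psmd1 had the highest ratio, 0.1, and Psmd6 the lowest, -0.098, and both had ratios below 0 in 11 libraries (-0.15 for Psmd1 and -0.24 for Psmd6) and above 0 in 12 (0.21 for Psmd1 and 0.1 for Psmd6).

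These ratios changed with the sets of libraries left out, and the map of deviations by library shows the values behind them. Psmd6, Psmd7, Psme4 and Psmg2 were chosen as examples after their values were seen. Psmd6, a lid subunit, ranged from 60.8 to 90.8 FPKM in BPS and from 60.2 to 78.6 FPKM in 6 of the vehicle libraries, and stood at 121 and 108 FPKM in vehicle replicates 2 and 6. Psmd7, a partner of Psmd14 in the lid, ranged from 69.8 to 88.6 FPKM in BPS, against 115 and 99.7 FPKM in vehicle replicates 2 and 6. Psme4, an activator that caps the core in the nucleus, ranged from 15 to 19.2 FPKM in BPS, against 27.5 and 26.5 FPKM in those vehicle libraries. All 3 genes were thus higher in this pair of vehicle libraries than in any BPS library. The same held for the assembly chaperone Psmg2, with 27.8 to 33.6 FPKM in BPS, against 46.2 and 41.2 FPKM there. Vehicle replicate 2 was the highest of the 15 libraries for 15 of the 46 tested members and the lowest for none. Vehicle replicate 5 and BPS replicate 6 were also the lowest for none. Vehicle replicate 6 was the highest for 0 members and the lowest for 6. Vehicle replicates 2 and 6 were the libraries with the highest sums of skeletal muscle markers, and the part of muscle transcripts in these levels was not tested. BPS replicate 4, with the lowest brown adipocyte sum, was the highest library for 8 members and the lowest for 7. The same counts were not made over all genes tested, so those of the members have no background here.

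**Figure D3:**
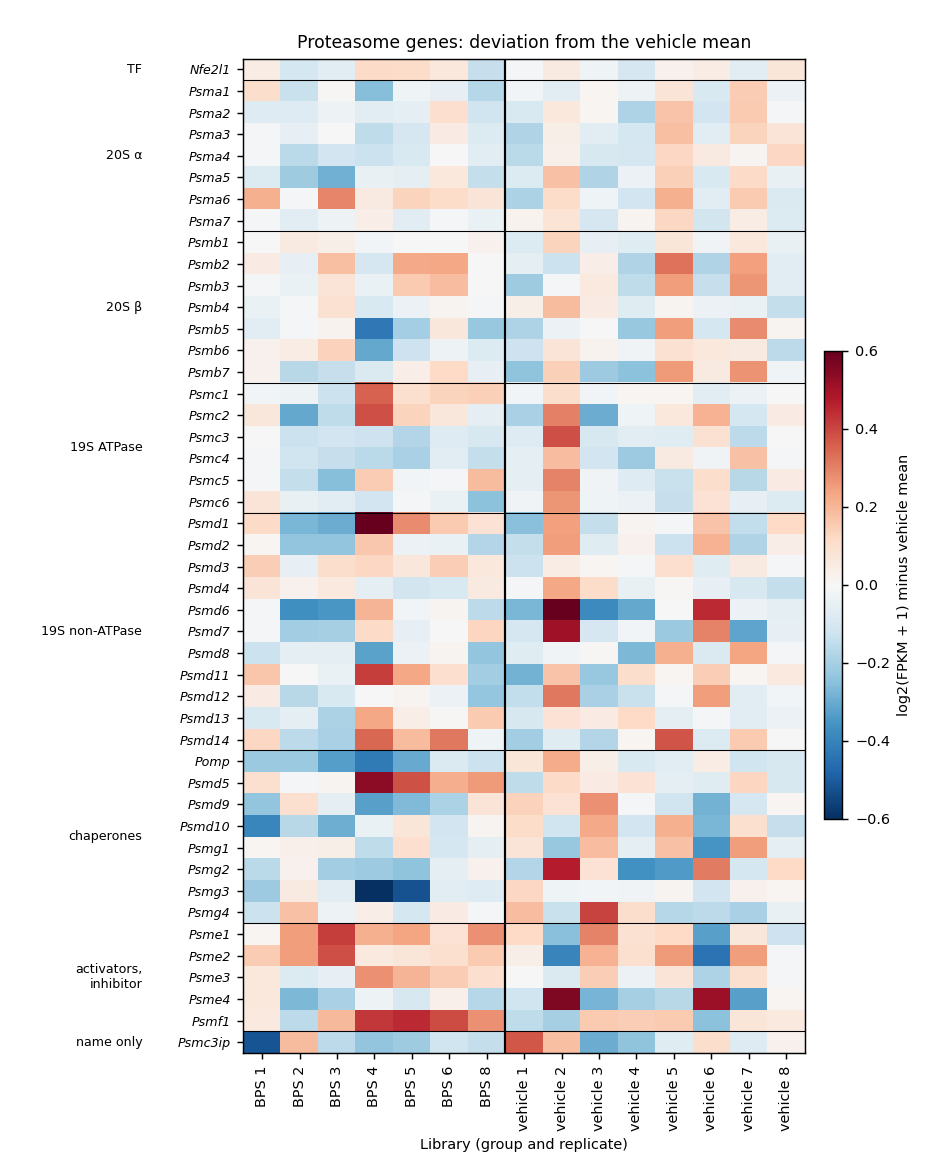
Deviation of each of the 46 tested proteasome genes (rows, by role) from its vehicle mean, on the log2(FPKM + 1) scale (colour, red above and blue below, ending at 0.6), in each library (columns, BPS left of the black line, vehicle right). Vehicle replicate 2 is above its group's mean for 6 of 6 ATPase genes and 9 of 11 non-ATPase genes. Vehicle replicates 5 and 7 are above the vehicle mean for 7 and 6 of the 7 beta genes, and both for 7 of the 7 alpha genes. Pomp is blue in all 7 BPS libraries.

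In all 15 libraries the assembly chaperones had the lowest median of the roles with several genes, -0.12, with 7 of 8 genes below 0. Their median was -0.16 in 12 libraries and -0.071 in 11, where the ATPase and non-ATPase genes lay lower, at -0.084 and -0.083. Pomp, the chaperone that guides the beta subunits into the core and is degraded when it is complete, had the lowest ratio and the smallest p of the 46. It had 246, 283 and 312 FPKM as the lowest, median and highest BPS values, against 305, 327 and 386 FPKM in vehicle. Of the 7 BPS libraries, 6 lay below every vehicle library, and only BPS replicate 6 reached into the vehicle range. Means were 279.5 ± 22.6 FPKM in BPS and 332 ± 27.4 FPKM in vehicle (SD, n = 7 and 8). The log2 ratio was -0.25 ± 0.074, with a 95% interval of -0.40 to -0.087, and the adjusted p was 0.109 by limma, above the threshold. The ratio was -0.26 in 11 libraries and -0.21 in 12, with adjusted p-values of 0.503 and 0.405 by limma. The libraries of BPS replicates 1, 2 and 3 averaged 276 ± 11.7 FPKM for Pomp, and the other 4 BPS libraries 282 ± 30.2 FPKM (SD). The authors' deposited table gave a log2 ratio of -0.33 for Pomp. RefSeq (GRCm38.p6) places Pomp on chromosome 5 from 147860628 to 147875784.

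Psmg3, one of the chaperones that build the alpha ring, was lower in 2 BPS libraries than in any other. Its lowest, median and highest values were 14.8, 23.3 and 25.5 FPKM in BPS, against 22.6, 24.5 and 26.9 FPKM in vehicle. BPS replicates 4 and 5, at 14.8 and 16.8 FPKM, were far below the rest, and the other 5 BPS libraries lay between 21 and 25.5 FPKM. The log2 ratio was -0.23 ± 0.1 with an adjusted p of 0.196 by limma, and -0.075 in 11 libraries, where the adjusted p was 0.79. Its partners had log2 ratios of -0.019 (Psmg1), -0.12 (Psmg2) and -0.00061 (Psmg4). In 12 libraries these were -0.15 for Psmg1, 0.06 for Psmg2 and -0.067 for Psmg4, and in 11 libraries Psmg1 was at 0.025 and Psmg4 at 0.0074.

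Of the chaperones of the 19S base, Psmd5 had a ratio above 0, while Psmd9 and Psmd10 had ratios of -0.13 each, with Psmd9 at -0.066 in 11 libraries. Psmd5 had 17, 20 and 25.2 FPKM as the lowest, median and highest BPS values, against 15.3, 17.1 and 18.8 FPKM in vehicle. The values in BPS replicates 4, 5, 6 and 8 were 25.2, 22.6, 20 and 20.6 FPKM, all above the highest vehicle library, and those in BPS replicates 1, 2 and 3 were 18.3, 17 and 17.3 FPKM, inside the vehicle range. The log2 ratio was 0.21 ± 0.084 with an adjusted p of 0.16 by limma, and 0.033 in 11 libraries, where the adjusted p was 0.91. Psmd10, which is X-linked, averaged 20.8 ± 2.47 FPKM in BPS and 22.9 ± 3.04 FPKM in vehicle (SD, n = 7 and 8). The libraries of BPS replicates 1, 2 and 3 averaged 18.6 ± 1.55 FPKM for it, and the other 4 BPS libraries 22.5 ± 1.29 FPKM (SD). The ratio of Psmd10 was -0.28 in 11 libraries and -0.24 in 12, with adjusted p-values of 0.571 and 0.406 by limma.

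**Figure D4:**
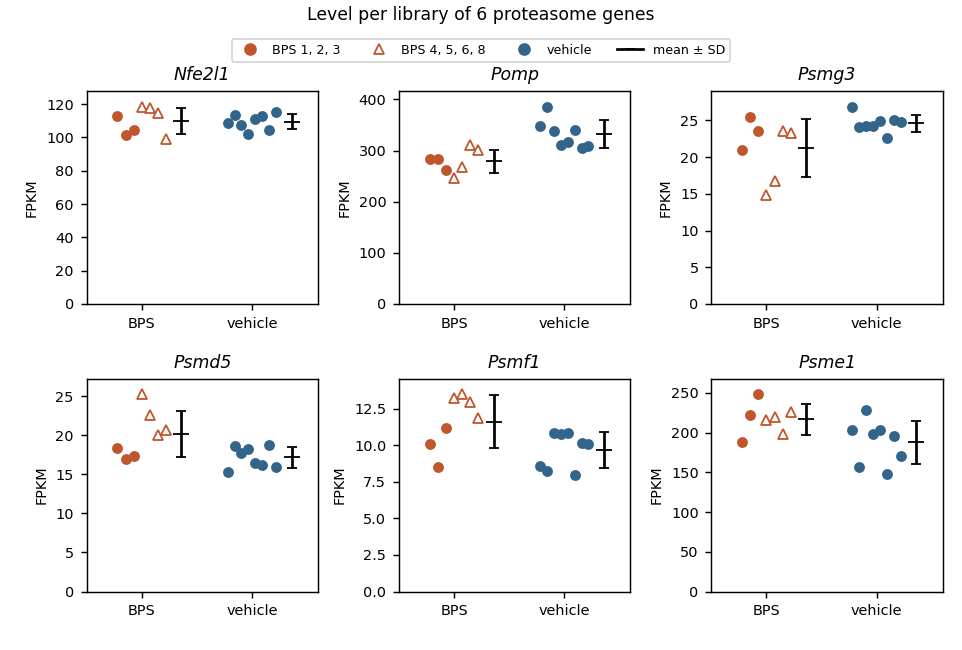
FPKM (y axis, from 0) of Nfe2l1, Pomp, Psmg3, Psmd5, Psmf1 and Psme1 in each library, with BPS left (filled circles for replicates 1, 2 and 3, open triangles for replicates 4, 5, 6 and 8) and vehicle right, and mean ± SD as bars. The triangles carry the high values of Psmd5 and Psmf1, both low values of Psmg3 at 14.8 and 16.8 FPKM are triangles, and Pomp is low in circles and triangles alike.

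The other activators and the inhibitor had the highest median of the roles, 0.17, with 4 of 5 tested genes above 0, and 0.032 in 11 libraries and 0.072 in 12. Psme1 and Psme2 encode the interferon-inducible activator that opens the core without ubiquitin, and Psme3 encodes its nuclear relative. Psme1 had 188, 219.7 and 248 FPKM as the lowest, median and highest BPS values, against 148, 197 and 229 FPKM in vehicle. The groups overlapped, with vehicle replicates 6, 2 and 8, at 148, 157 and 171 FPKM, below every BPS library. The log2 ratio of Psme1 was 0.21 ± 0.097 with an adjusted p of 0.207 by limma, 0.22 in 11 libraries and 0.072 in the 12 without those 3 vehicle libraries. Psme2 averaged 299 ± 25.1 FPKM in BPS and 269.7 ± 48.3 FPKM in vehicle (SD, n = 7 and 8), a log2 ratio of 0.17, which was -0.0023 in 12 libraries. The similarly named Psme2b, with reads that may not be separable from those of Psme2, was below the filter, at 0.714 ± 0.426 FPKM in BPS and 0.456 ± 0.309 FPKM in vehicle. Psme3 had a ratio of 0.095, which was -0.023 in 11 libraries, and Psme4 had one of -0.096, which was 0.12 in 12 libraries.

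Psmf1, an inhibitor of the core in vitro, had the highest ratio of the 46 tested members. Its lowest, median and highest values were 8.53, 11.9 and 13.5 FPKM in BPS, against 7.97, 10.1 and 10.9 FPKM in vehicle. Of the 7 BPS libraries, 5 lay above every vehicle library, among them replicates 4, 5, 6 and 8 at 13.2, 13.5, 13 and 11.9 FPKM, while BPS replicates 1 and 2 lay within the vehicle range. The log2 ratio was 0.23 ± 0.1 with an adjusted p of 0.189 by limma, and 0.032 in 11 libraries, where the adjusted p was 0.935. Psmd5, Psmg3 and Psmf1 thus had ratios near 0 without the 4 libraries that stood apart in sex-linked transcripts. Those libraries also had the highest macrophage sums. Their 5 white adipocyte markers summed to 2465 to 5994 FPKM, against 411 to 1600 FPKM in BPS replicates 1, 2 and 3 and 585 to 2588 FPKM in vehicle, and their 6 endothelial markers to 224 to 388 FPKM, against 435.5 to 737 FPKM in BPS replicates 1, 2 and 3 and 359 to 894 FPKM in vehicle. The part of cell composition in these ratios was not tested. Psmc3ip, the member by name only, averaged 2.66 ± 0.536 FPKM in BPS and 3.12 ± 0.644 FPKM in vehicle (SD, n = 7 and 8), a log2 ratio of -0.17 with an adjusted p of 0.361 by limma, and -0.11 in 12 libraries.

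The immunoproteasome subunits, which are not among the 48, replace the catalytic beta subunits when interferon acts on a cell or in immune cells. None of the 3 passed limma's adjusted threshold, and the smallest adjusted p was that of Psmb8, 0.224 by limma. Psmb8 averaged 89 ± 12.5 FPKM in BPS and 73.2 ± 18.4 FPKM in vehicle (SD, n = 7 and 8), less than its constitutive counterpart Psmb5 in every library. The log2 ratio of Psmb8 to Psmb5 was -1.41 ± 0.288 in BPS and -1.84 ± 0.478 in vehicle, a difference of 0.43 with 6 of 7 BPS libraries above the vehicle mean. By a two-sided exact permutation test over 6435 splits, p was 0.0608, and 0.182 after adjustment over the 3 ratios. For Psmb9 over Psmb6 the ratio was -1.96 ± 0.228 in BPS and -2.12 ± 0.355 in vehicle (exact permutation p = 0.29, adjusted 0.327). For Psmb10 over Psmb7 it was -2.17 ± 0.225 in BPS and -2.36 ± 0.439 in vehicle (exact permutation p = 0.327, adjusted 0.327). The differences were 0.42, 0.27 and 0.31 in 11 libraries and 0.35, 0.06 and 0.052 in 12. With single libraries left out, the Psmb8 to Psmb5 difference ranged from 0.32 to 0.54. The adjusted exact permutation p was under 0.05 only without vehicle replicate 4, at 0.0385 with a difference of 0.54. That library had the highest Psmb8 to Psmb5 ratio of its group, so leaving it out had to raise the difference. The adjustment covers the 3 ratios and not the choice among libraries to leave out. The part of immune cells in these ratios was not tested.

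**Figure D5:**
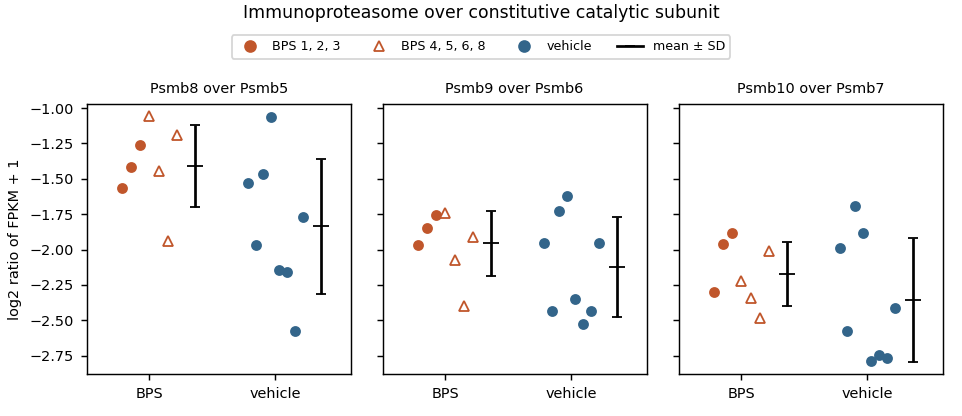
Log2 ratio of FPKM + 1 (y axis) of each immunoproteasome subunit to the constitutive subunit it replaces, per library, with BPS left (filled circles for replicates 1, 2 and 3, open triangles for replicates 4, 5, 6 and 8) and vehicle right, and mean ± SD as bars. All points lie below 0, so the constitutive subunit was the more abundant in every library, and the groups overlap in all 3 panels.

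Other genes of the pathway, in lists chosen by role, showed no member past limma's adjusted threshold either. Among 12 further subunits and partners found in the table, 5 had a ratio above 0 and the median was -0.028. Over all genes tested, 7107 of 12156 were above 0, with a median of 0.046. Ube3c, a ubiquitin ligase that works at the proteasome, averaged 10.2 ± 0.576 FPKM in BPS and 8.82 ± 0.72 FPKM in vehicle (SD, n = 7 and 8), a log2 ratio of 0.2 ± 0.06 with an adjusted p of 0.11 by limma. Sem1, the smallest 19S subunit, averaged 498 ± 73.5 FPKM in BPS and 589 ± 37 FPKM in vehicle, a log2 ratio of -0.25 ± 0.095 with an adjusted p of 0.146 by limma, and -0.061 in 11 libraries. Its lowest values, 374 and 437 FPKM, were those of BPS replicates 4 and 5, which were also the low libraries of Psmg3. The ubiquitin receptor Adrm1 averaged 66 FPKM in BPS and 65.8 FPKM in vehicle, and the deubiquitinating enzyme Usp14 averaged 32.7 FPKM in BPS and 32.4 FPKM in vehicle.

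Upstream of the proteasome, 9 of 13 ubiquitin genes, activating enzymes and shuttle factors had a ratio above 0, beside 7107 of 12156 genes tested. Their median was 0.1, beside 0.046 over all genes tested. In 11 libraries that median was 0.036, beside 0.0085 over all genes. The activating enzymes had the smallest p-values. Uba1 averaged 51.5 ± 3.54 FPKM in BPS and 44.2 ± 5.36 FPKM in vehicle (SD, n = 7 and 8), a log2 ratio of 0.22 with an adjusted p of 0.135 by limma, and Uba6 averaged 1.69 ± 0.232 FPKM in BPS and 1.32 ± 0.295 FPKM in vehicle, a log2 ratio of 0.22 with an adjusted p of 0.169 by limma. Without vehicle replicates 2, 6 and 8 the ratios were 0.11 for Uba1 and 0.15 for Uba6. Of the 8 subunits of TRiC, the chaperonin that folds newly made cytosolic proteins, 6 had a ratio above 0, with a median of 0.11. Their median was 0.074 in 11 libraries and 0.078 in 12, beside 0.0085 and 0.035 over all genes. Cct5 averaged 114 ± 6.74 FPKM in BPS and 99.9 ± 10.9 FPKM in vehicle, a log2 ratio of 0.19 with an adjusted p of 0.158 by limma, and 0.11 in 12 libraries. Tcp1 averaged 117 ± 6.78 FPKM in BPS and 105.6 ± 3.68 FPKM in vehicle, with an adjusted p of 0.163 by limma.

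The authors' own comparison of these libraries gave lower ratios than limma, for the members and for all genes too. Over the genes that passed the filter here, its median was -0.12 for the 46 members and -0.015 for all. By limma those medians were -0.028 and 0.046. In the authors' deposited table, ratios below 0 were given for 36 of 48 members, with a median of -0.11, beside a median of -0.027 and 54.0% below 0 over all genes in that table. At an unadjusted p under 0.05 in that table there were 8 members, all lower in BPS (Pomp, Psmg3, Psmd10, Psma5, Psma4, Psmd9, Psmc4 and Psmc3). Over all genes, 23.6% reached that level in either direction, a larger share than 8 of 48. That share was not split by direction, so the one direction of the 8 has no background here. Psmd5, Psmf1 and Psme1, the 3 members that were higher in BPS at an unadjusted p under 0.05 by limma, were not among them.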

How the data were processed

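The values were FPKM per gene in 15 libraries, as the authors deposited them. The submitters' processing notes name RSEM 1.3.1, HISAT2 2.1.0, DESeq2 1.4.5 and Bowtie2, and the build GRCm38.p6. The authors' deposited log2 ratios, p-values and q-values were used only where named. Here, limma 3.58.1 (R 4.3.3, intensity trend, robust spread) was fitted to log2(FPKM + 1) of all 12156 genes that reached 1 FPKM in 7 or more libraries, a scale that understates changes of low genes. On simulated data with 15 libraries, the fit recovered 10% of log2 changes of 0.25 and 40% of those of 0.5. With 11 libraries it recovered 0% and 32% of these. A count of 0 members past the threshold thus does not show that changes of 0.25 or less were absent. Leave-out fits repeated the filter. Immunoproteasome ratios were compared by exact permutation. Libraries are taken as separate mice, so p-values measure the spread between libraries. FPKM summed to 756556 to 920855 per library, and the depth in reads is unknown: low values showed no clear step of 1 read.

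Members, gene lists and tests were chosen with earlier results of these data known. Members with values from every library were Nfe2l1, Pomp, the 3 catalytic subunits, and the 2 of smallest p in each role, with Psmg3 added for its unadjusted p, and other named genes were the 2 of smallest p in each list. Psmd6, Psmd7, Psmd10, Psme2, Psme4, Psmg2, Vcp, Ngly1, Adrm1 and Usp14 were named for their role or after their values were seen. Coordinates and promoters come from RefSeq (GRCm38.p6), which matched 48 of 48 members. Psma8, Psmb1, Psmb2, Psmb7, Psmc3, Psmd3, Psmd7 and Psmg2 had no promoter entry. Whether the libraries were stranded is not stated in the labels, so reads of overlapping genes cannot be told apart.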

Additional observations from a re-analysis of the deposited data

Results flagged for a closer look

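One proteasome value stood apart from its group. Psmc3, an ATPase of the 19S particle, was at 168.72 FPKM in vehicle replicate 2, where the nearest of the other 7 vehicle libraries was at 137.58 FPKM. The gap took up more of the group's range than Dixon's 95% limit allows. This library also had the highest sum of skeletal muscle markers, 75782 FPKM, and the part of muscle transcripts in the Psmc3 level was not tested. In all, 40 groups of values were examined this way, and chance alone gives about 1 such value in 20 groups.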

How the results depend on the processing

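No proteasome member passed limma's adjusted threshold under any of the 27 alternatives, where the smallest adjusted p was 0.0799 (Psmf1). They gave 1 to 6 members with an unadjusted p under 0.05 by limma. Over all genes, 23.1% reached that level in 15 libraries (5 of the 46 members), 8.08% in 11 (2 members) and 12% in 12 (2 members). For the other alternatives that share is not given here. The median log2 ratio of the tested members lay between -0.070 and 0.0042. Of all genes tested, 50 of 12156 (0.411%) passed the threshold with all 15 libraries. A count of 0 in 46 members is near that share and does not show that the members were stable. The count over all genes was 0 without vehicle replicates 2, 6 and 8 (1420 at an unadjusted p under 0.05), 2 with a skeletal muscle covariate, 77 with median scaling, 17 with a pseudocount of 5, 9 without a filter, 29 with a filter of 5 FPKM, and 1 to 82 with single libraries left out. The ratio of Nfe2l1, 0.0034, was -0.042 in 11 libraries, -0.038 with median scaling, and between -0.015 and 0.027 with single libraries left out. Psmb6 was 0.070 in 11 libraries and 0.0058 after quantile normalization, and Psmb7 0.021 after quantile normalization and between -0.072 and 0.00094 with single libraries left out. The Psmb8 to Psmb5 difference ranged from 0.32 to 0.54 with single libraries left out, and the adjusted exact permutation p was under 0.05 only without vehicle replicate 4. The cause of these shifts was not tested. The other members given by lowest, median and highest value kept their direction in every alternative. The labels do not say whether replicate numbers pair the mice. Same-numbered deviations correlated at -0.42 to 0.58 over 7 pairs, and 2 of 7 correlated best with their own number. Such correlations cannot decide whether the mice were paired. With the number as a replicate block, 38 genes and 0 members passed, Nfe2l1 was at -0.0054 and Psmb7 at 0.00094.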
